A study of Mus musculus with 39 samples.

Results

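5-hydroxymethylcytosine (5hmC) was estimated in mouse embryonic stem cells (mESC) that lack p53 (p53-/-) and were treated with retinoic acid (RA). The estimate is total methylation (5mC plus 5hmC) from reduced representation bisulfite sequencing (RRBS) minus 5mC from its oxidative form (oxRRBS), per tile of 200 bp. All tiles with both values were taken, 252014 of 377684 in the deposited table. This group has 8 of the series' 39 libraries, 4 RRBS and 4 oxRRBS. The cells came from morulae at embryonic day 2.5, from crosses of p53+/- mice of the strain 129s-Trp53tm2Tyj/J, and were derived in 2i medium on irradiated feeder cells. Feeders were depleted before differentiation, which comprised 16 hours in differentiation medium and then 1 uM RA, renewed daily for 4 days. The compared groups were RA-treated wild-type (WT) cells, with 5 RRBS and 4 oxRRBS libraries, and cells labelled as being in the naive state, p53-null (3 and 3 libraries) and WT (5 and 5). The p53-null cells lack p53 from the germline. The labels do not say whether the libraries of a group are separate lines, nor how many feeder cells remained.

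5hmC forms when a TET enzyme oxidises 5mC, the methyl mark that DNMT enzymes place mostly on CpGs. It can be oxidised further and removed by base excision repair, or be lost as cells divide, because maintenance methylation copies it poorly. Mouse ESC express Tet1 and Tet2 and are known for readily measured 5hmC, while CpG-dense islands are mostly free of both marks. Bisulfite sequencing reads 5mC and 5hmC alike. Oxidation turns 5hmC into a base that bisulfite converts, so the difference between the assays estimates 5hmC.

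The authors deposited 1 pooled value per group and tile, without counts or coverage. Depth is unknown, no value has a replicate error, and no difference below could be tested against the spread between libraries. The spread given is the SD over the 20 chromosomes with at least 1000 tiles, or with at least 20 tiles within a class, which describes the genome of the pool and not the libraries. The headings of the tile table name genotype and modification but no cell state, and the second set of columns was taken as the RA-treated cells. A table of single CpGs does name the state. Over 49913 tiles above 10% in naive p53-null cells, the second set's p53-null total differed from the mean of the RA-treated p53-null CpGs by 6.95 points on average, without regard to sign. It differed from naive p53-null CpGs by 13.7 points and from RA-treated WT CpGs by 11.4 points.

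RA-treated p53-null cells had little 5hmC on average, and how evenly it lay over the tiles was not tested. Total methylation averaged 39.3% and 5mC 36.4%, which leaves 2.84 percentage points of 5hmC (SD over chromosomes 0.221), or 7.23% of total methylation. The mean lay above the median tile, which was at 1.11 points, and the quartiles were -1.63 and 8.02 points. Of all tiles, 61.2% were above 0, 2.41% at 0 and 36.4% below 0. A value below 0 cannot be a 5hmC level, so the lower tail shows how large the error of a single tile is.

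That error was large against the signal. The SD over tiles was 10.4 points, and single tiles ranged from -70.9 to 69.4 points. At 10 points or more lay 20.04% of tiles, 50503 in number, and at -10 points or less 8.06%, which is 20314 tiles. At 20 points the shares were 5.76% and 1.89%. The upper tail thus held more tiles than the lower at both sizes, but values of both signs were common at 10 points.

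**Figure D1:**
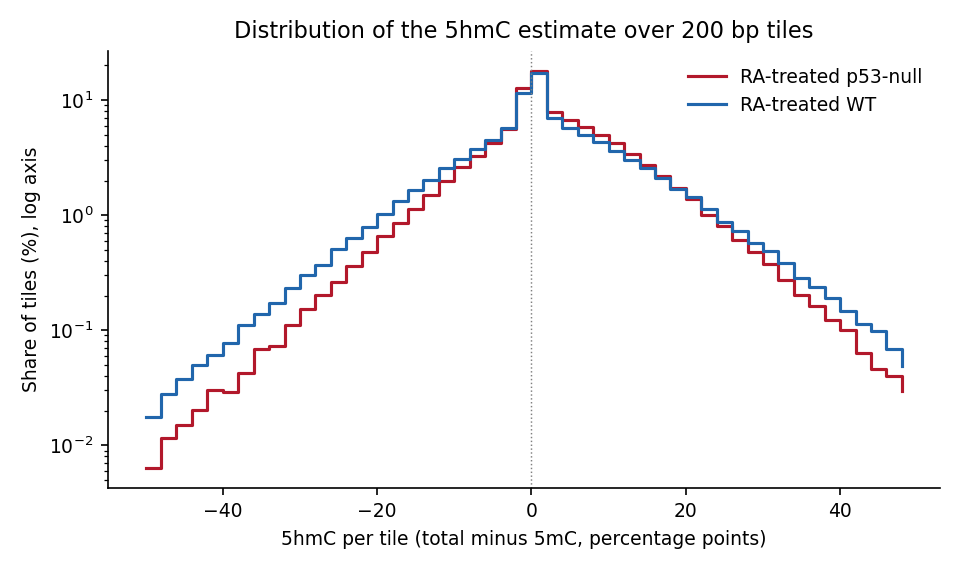
Share of tiles (vertical, log axis) by their 5hmC estimate in bins of 2 percentage points (horizontal, -50 to 50), for RA-treated p53-null cells (red) and WT cells (blue). In p53-null cells 20.04% of tiles are at 10 points or more and 8.06% at -10 points or less, and the WT curve lies above the p53-null curve on the far left and on the far right.

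The amount of 5hmC was lowest where DNA is unmethylated, and by naive level it stayed between 2.44 and 3.79 points in the classes above 5%. Tiles were grouped by the mean total methylation of both genotypes in the naive set, which does not enter the RA-treated estimate. Under 5%, 50224 tiles averaged 0.571 points (SD over chromosomes 0.0610). From 5% to 20% the mean was 3.29 points over 26199 tiles. It was 3.79 points at 20% to 40% and 3.66 points at 40% to 60%, over 41452 and 58940 tiles. Above that it was 3.05 points at 60% to 80% and 2.44 points in the 3649 tiles at 80% or more, where the SD over chromosomes was 0.940.

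As a share of the methylation present, 5hmC fell along the whole scale. It made up 16.6% of total methylation in tiles under 5% in naive cells, where total methylation after RA was 3.43%. The share was 12.5% at 5% to 20%, 8.61% at 20% to 40%, 6.54% at 40% to 60%, 4.69% at 60% to 80% and 3.30% at 80% or more. Total methylation in that last class was 74.0% and 5mC 71.6%. Tiles that were nearly fully methylated in naive cells therefore carried mostly 5mC after RA.

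Grouping by total methylation of RA-treated WT cells also put the lowest value in tiles under 5%, but the course above it differed. The means were 0.207, 1.93, 3.30, 3.73, 3.61 and 3.97 points from the lowest class to the highest, so the lower classes were below their values by naive level and no decrease was seen above 60%. Grouping by the cells' own columns gave other answers. By own total, tiles at 80% or more had 12.3 points of 5hmC and tiles under 5% had -0.0440 points. By own 5mC, tiles at 80% or more had -11.1 points and those at 20% to 40% had 7.75 points. The column that sets the class is there also part of the difference, so its error enters both, with opposite signs in the 2 groupings.

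**Figure D2:**
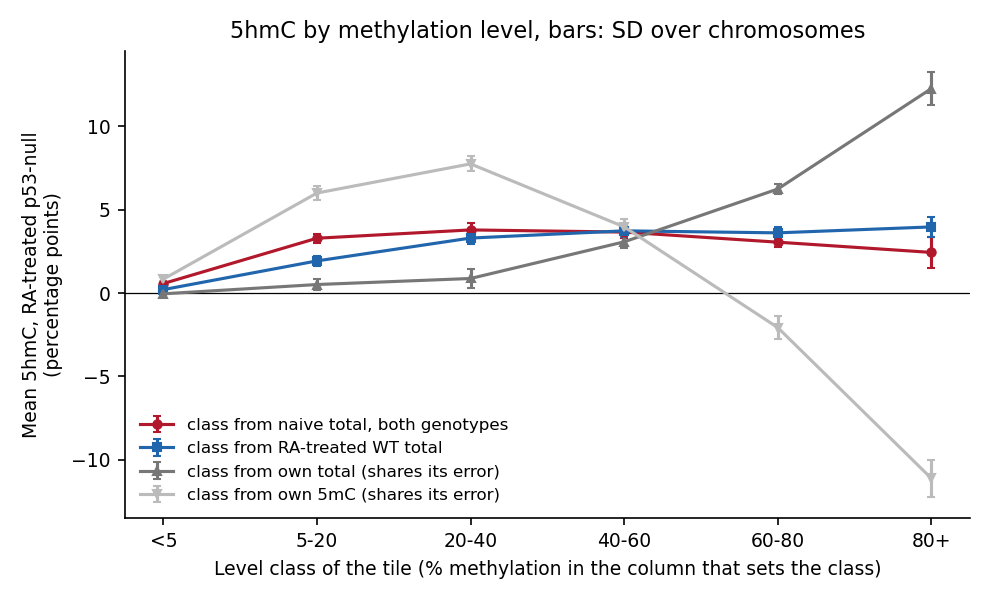
Mean 5hmC in RA-treated p53-null cells (percentage points) by level class, with the class set by naive total methylation (red), RA-treated WT total (blue), own total (dark grey) or own 5mC (light grey), and bars for the SD over chromosomes. The 2 curves with an outside class stay between 0.207 and 3.97 points, while those with an own column reach 12.3 and -11.1 points.

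Density was first measured by the CpGs that the single-CpG table lists in a tile. By this measure the densest tiles held almost no 5hmC. The 7054 tiles with 9 or more listed CpGs averaged 0.478% total methylation and 0.137 points of 5hmC. Of these tiles, 7023 were under 5% total methylation in RA-treated WT cells. Tiles with 5 to 8 listed CpGs were at 0.556 points, those with 3 to 4 at 2.57, those with 2 at 4.80 and those with 1 at 5.82 points. The 146707 tiles with no listed CpG did not continue this order, with 1.86 points (SD over chromosomes 0.255) at a total methylation of 47.2%. At a fixed level the order turned round. In tiles at 40% to 60% in RA-treated WT cells, those with 1 listed CpG had 6.98 points, with 2 listed 7.97, with 3 to 4 listed 9.03 and with 5 to 8 listed 9.45 points (156 tiles). No listed CpG has a difference below 0 in these same cells, so this order cannot be read as one of density.

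The listing itself is not independent of 5hmC, nor of methylation level. Tiles with a listed CpG averaged 28.3% total methylation in RA-treated p53-null cells, and those without one 47.2%. How far the listing sets the low level of tiles with many listed CpGs was not tested. Each CpG of that table has a second value per group whose suffix the sources used here do not define. For RA-treated p53-null cells it differed from the tiles' 5mC by 7.01 points on average and from their total by 11.5 points. In 0 of 330387 CpGs was the second value above the first, in any of the 4 mESC groups, although 36.4% of tiles were below 0. Among the 30242 CpGs at 40% to 60% total methylation, 1363 had a difference of 0, 1330 of 1 point and 1443 of 2 points, so values did not pile up at 0 in this band. Over all listed CpGs, 55.3% had a difference of 0. The table therefore holds no CpG with a difference below 0, and tiles with listed CpGs are tiles where CpGs not below 0 were found.

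Within a level class, tiles with a listed CpG had more 5hmC than tiles without one. No listed CpG has a difference below 0 in these same cells, so the listing itself favours this direction. The values below show the size of the gap and are no separate result about 5hmC. In tiles at 40% to 60% total methylation in RA-treated WT cells, the 19956 tiles with a listed CpG averaged 7.33 points in p53-null cells and the 47211 without one 2.21 points. Their total methylation was alike, 47.5% and 48.5%. At 60% to 80% the means were 7.73 and 1.90 points, and at 80% or more 9.61 and 1.98 points. Of tiles without a listed CpG, 13.2% were at -10 points or less, against 0.901% of tiles with one. Over all listed CpGs the mean difference was 3.98 points at a total of 15.1%, higher than the 2.84 points over tiles at a total of 39.3%. A level of 5hmC read from the listed CpGs is accordingly not comparable with that of all tiles.

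**Figure D3:**
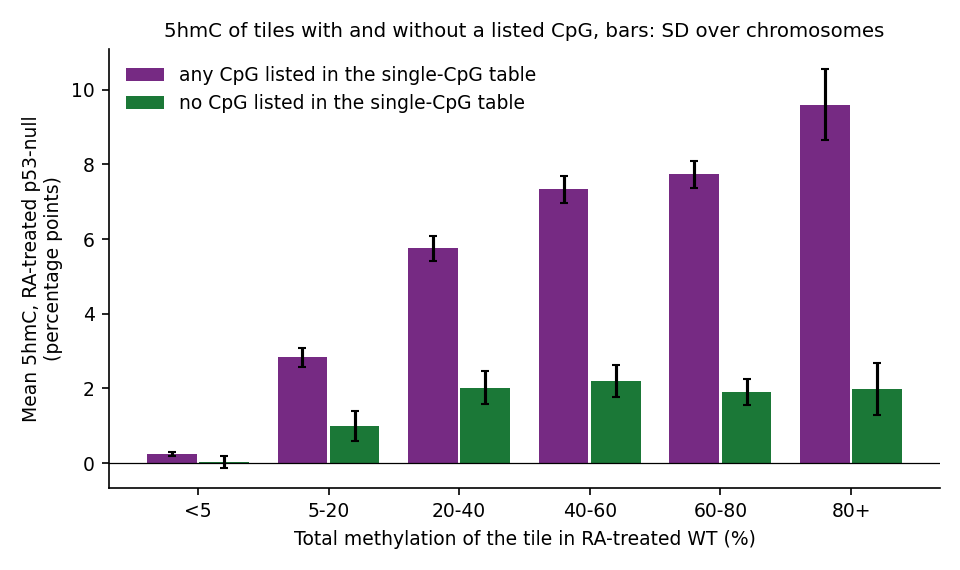
Mean 5hmC in RA-treated p53-null cells (percentage points) of tiles with (purple) and without (green) a CpG in the single-CpG table, by total methylation of the tile in RA-treated WT cells, with bars for the SD over chromosomes. From 20% upward, tiles without a listed CpG stay between 1.90 and 2.21 points, while tiles with one reach 9.61 points. No listed CpG has a difference below 0 in these cells, so the listing favours this direction.

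A density measure that does not use the listing was the number of other tiles of the table within 1 kb, which is high where MspI sites and thus CpGs are clustered. Tiles with none averaged 3.93 points, those with 1 neighbour 3.50, with 2 neighbours 2.97 and with 3 to 4 neighbours 2.18 points. With 5 to 6 neighbours the mean was 1.02 and with 7 or more 0.556 points. Total methylation fell in the same order, from 50.6% to 6.28%, and 5hmC stayed between 7.03% and 8.86% of it in each class. At a fixed level of 40% to 60% in RA-treated WT cells the gradient was smaller but not gone. Tiles with no neighbour were at 4.11 points (SD over chromosomes 0.730), those with 3 to 4 at 3.55, those with 5 to 6 at 3.53 and the 297 tiles with 7 or more at 2.84 points (SD 1.87). In every level class tiles with no neighbour were above those with 5 to 6. At 60% to 80% they had 4.07 and 2.86 points, at a total of 61.0% and 61.3%, and the 239 tiles with 7 or more had 3.13 points.

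Distance from dense tiles, here those with 9 or more listed CpGs, gave a profile like that of an island and its shores. This measure rests on the listing as well. Dense tiles had 0.137 points, tiles within 1 kb of one 0.345 points, tiles at 1 to 2 kb 1.87 points and tiles at 2 to 5 kb 2.87 points. From 5 kb outward the mean was level, at 3.21 points for 5 to 20 kb, 3.14 for 20 to 100 kb and 3.11 beyond 100 kb. Total methylation followed the same course, from 0.478% through 2.54%, 20.3% and 35.1% to 44.6%. In tiles at 40% to 80% in RA-treated WT cells the shore did not stand apart, with 4.19 points at 1 to 2 kb (723 tiles, SD over chromosomes 1.57) and 3.56 points beyond 100 kb (80753 tiles).

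Neighbouring tiles were then compared, since a 5hmC level that belongs to a region would show in several tiles. Adjacent tiles, whose starts are 200 bp apart, had a Pearson's r of 0.223 over 112374 pairs. Such tiles can be read from the same MspI fragments, so they may share reads. At 400 bp r was 0.0433, at 1000 bp 0.0306 and at 2000 bp -0.00252. With the mean of the tile's WT level class taken away, r was 0.204 at 200 bp and 0.00790 at 400 bp. Total methylation of the same cells, for comparison, had r of 0.883 at 200 bp, 0.874 at 400 bp and 0.710 at 1000 bp. In naive WT cells 5hmC had r of 0.125 at 400 bp and 0.0913 at 1000 bp, in naive p53-null cells 0.102 and 0.0549. Tile pairs share their libraries, and these values describe the pools.

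**Figure D4:**
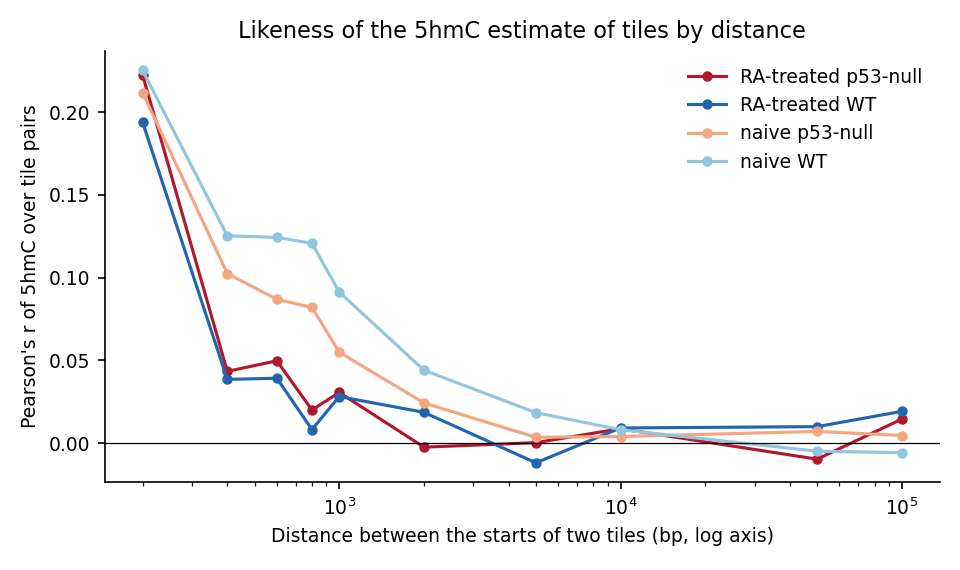
Pearson's r of the 5hmC estimate over pairs of tiles (vertical) by the distance between their starts (horizontal, log axis), for the 4 mESC groups. All groups start near 0.2 at 200 bp, and at 400 bp the RA-treated groups are below 0.05 while the naive groups are above 0.1.

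Averaging over windows narrowed the spread from the SD of 10.4 points over single tiles. In 9385 windows of 100 kb with at least 10 tiles, mean 5hmC had a median of 2.69 points and an SD of 2.88 points. The median was 1.06 points when the same windows were summarised by their median tile. For windows of 100 kb, the SD of single tiles divided by the root of each window's number of tiles would be 2.59 points. The mean was below 0 in 14.1% of them. Only 1484 windows of 10 kb had at least 10 tiles, with a median of 1.35 points and an SD of 2.52 points. They held 17991 tiles, against 182509 in the windows of 100 kb, so the 2 sizes do not cover the same tiles. In 2571 windows of 1 Mb the SD was 1.63 points, against 1.34 points from the SD of single tiles in the same way, and 4.12% were below 0. The tiles of each 100 kb window were also split into separate sets. Odd and even tiles of a window had r of 0.195 over 9385 windows, but they include adjacent tiles. When whole clusters of tiles more than 1 kb apart were assigned alternately, r was 0.00646 over 7476 windows. Window means had r of 0.105 with those of RA-treated WT cells, 0.0744 with naive p53-null and 0.126 with naive WT cells.

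Named windows behaved accordingly. Among 3389 windows with at least 20 tiles, the 10 highest by their odd tiles ranged from 11.8 to 15.6 points there. Their even tiles, which did not rank them, ranged from -1.09 to 5.95 points with a median of 3.39, and 7 of 10 were above the median of 2.51 points over all windows. The first window was on chromosome 5 (mm9 105900001 to 106000000), with 15.6 points in odd and 3.23 points in even tiles. The window on chromosome 3 (121100001 to 121200000) kept the highest value in even tiles, 5.95 points from 39.0% total methylation and 33.0% 5mC. That on chromosome 15 (36900001 to 37000000) had 13.2 and 5.30 points. On chromosome 6 (113700001 to 113800000) odd tiles had 14.0 and even tiles 2.21 points. The window's mean of 8.40 points in p53-null cells includes the odd tiles that ranked it. RA-treated WT cells had -5.16 points there, the lowest WT value of the 10 windows, whose WT median was 3.99 points.

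The 5 lowest windows ranged from -6.79 to -5.88 points in odd tiles and from -7.09 to 5.76 points in even tiles. A low value was seen in both odd and even tiles in 2 of them. On chromosome 9 (61500001 to 61600000) odd tiles had -6.15 and even tiles -7.09 points, with 5mC of 57.6% above a total of 51.0% over the window. The window on chromosome 4 (34200001 to 34300000) had -6.27 and -4.73 points. RA-treated WT cells had 1.78 and 0.129 points in these windows. On chromosome 1 (155000001 to 155100000) odd and even tiles had -5.88 and 5.76 points.

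The highest runs of 5 neighbouring tiles within 5 kb are given as a description, since they were picked for their value among 37689 overlapping runs with a median of 0.820 points. The first, on chromosome 9 (72096401 to 72099400), averaged 24.8 points, from 77.9% total methylation and 53.1% 5mC. Its tiles had 37.7, 22.7, 7.99, 38.2 and 17.4 points of 5hmC in p53-null cells, and -15.3, 27.3, -6.19, 1.25 and -6.31 points in RA-treated WT cells. All 5 tiles were above 0 in p53-null cells, whose values ranked the runs. In WT cells, which did not rank them, 3 of 5 were below 0. A difference between genotypes cannot be read from runs picked in this way. The next runs were both on chromosome 2 (29886201 to 29890800 and 4798401 to 4803200), with means of 24.7 and 23.9 points, and each held a tile below 0, at -1.82 and -0.580 points. The run on chromosome 6 (128263401 to 128265800) averaged 22.8 points in p53-null and 8.82 points in WT cells, with p53-null tiles from 14.0 to 32.3 points. A run on chromosome 13 (113015001 to 113018400) averaged 23.2 points in p53-null cells, -7.66 points in RA-treated WT cells and 6.90 points in naive p53-null cells. Whether any of these runs lies in a gene was not analysed here, because the gene table at hand is on another build than mm9.

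By chromosome, 5hmC of RA-treated p53-null cells lay between 2.54 points on chromosome 7 and 3.34 points on chromosome 10 over the 19 autosomes. Chromosome X was lower, with 2.17 points over 5496 tiles. Total methylation of X was 38.7%, against 39.3% on autosomes, so 5hmC was 5.62% of it on X and 7.27% on autosomes. X had the lowest mean of the 20 chromosomes in each mESC group, with 0.849 points in RA-treated WT cells (autosomes 1.70 to 2.22), 4.13 in naive p53-null cells (4.45 to 5.49) and 4.70 in naive WT cells (5.36 to 6.15). The median tile did not set X apart in RA-treated p53-null cells, with 1.05 points on X and lower medians on 8 autosomes, among them chromosome 7 with 0.786 points. At fixed WT levels the mean of X was below the autosomes in 5 of 6 classes in RA-treated p53-null cells, for example 2.63 and 3.76 points at 40% to 60%. The exception was the class under 5%, with 0.283 points on X and 0.205 on autosomes. X also had more of its tiles at -10 points or less, 11.6% against 7.98%, and 20.8% against 20.02% at 10 points or more. The labels do not give the sex of the lines.

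**Figure D5:**
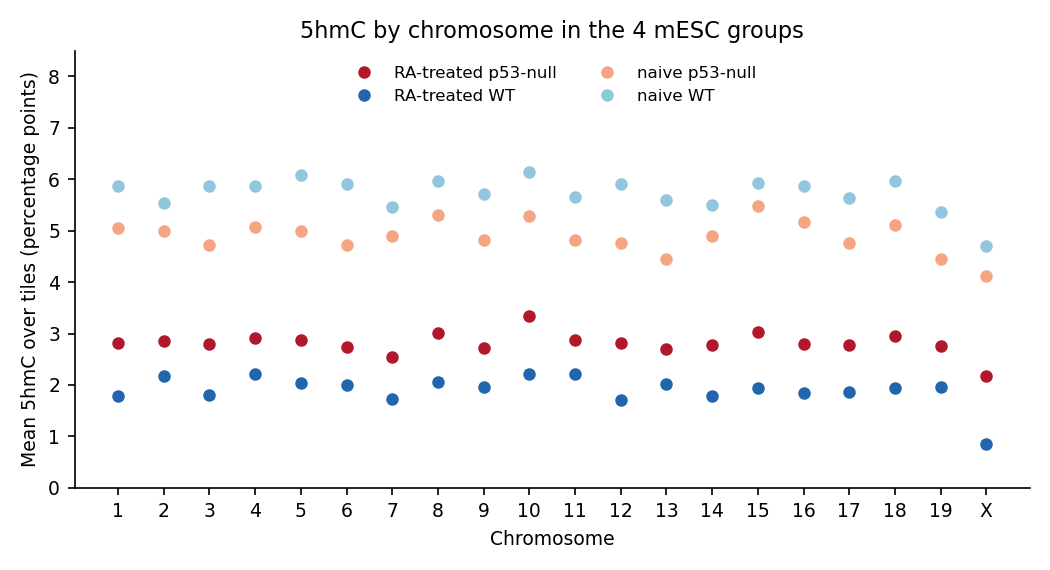
Mean 5hmC over tiles (percentage points) for each chromosome with at least 1000 tiles in the 4 mESC groups, naive values over the tiles that also have RA values. Chromosome X has the lowest mean in each group, with 2.17 points in RA-treated p53-null cells against 2.54 to 3.34 points on the autosomes.

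Against RA-treated WT cells, p53-null cells had 0.884 points more 5hmC over all tiles (2.84 against 1.96 points). Over the listed CpGs, none of which has a difference below 0, the order was the opposite. There p53-null cells had 3.98 and WT cells 4.43 points. The excess over all tiles was in those with a higher level. By naive level class it was 0.0241 points under 5%, 0.223 at 5% to 20%, 0.920 at 20% to 40%, 1.36 at 40% to 60%, 1.53 at 60% to 80% and 1.29 points at 80% or more. In the class at 60% to 80%, p53-null cells had 3.05 and WT cells 1.52 points of 5hmC. The excess also differed with the listing of CpGs. It was 1.49 points in the 146707 tiles with no listed CpG, where p53-null cells had 1.86 and WT cells 0.377 points. In the 105307 tiles with one it was 0.0458 points, where they had 4.20 and 4.16 points. No listed CpG has a difference below 0 in either genotype, so the listing depends on the values compared. This split cannot be read as a result about the genotypes. The lower tail, at -10 points or less, held 12.2% of WT tiles and 8.06% of p53-null tiles. The upper tail, at 10 points or more, held 19.9% of WT tiles and 20.04% of p53-null tiles. The WT estimate was the wider on both sides, with an SD over tiles of 12.1 points against 10.4, and from 20 points upward each bin of the distribution held more WT than p53-null tiles. The part of measurement error in this difference was not tested.

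Compared with naive p53-null cells, RA-treated p53-null cells had less 5hmC at about the same total methylation. The means were 4.94 and 2.80 points over the 214665 tiles that had all 8 values, a difference of -2.14 points (SD over chromosomes 0.231), with total methylation of 37.9% and 39.5%. RA-treated p53-null cells were the lower on 20 of 20 chromosomes. WT cells also had less 5hmC after RA, with 5.77 points in naive and 1.95 points in RA-treated cells over the same tiles. Their total methylation was 29.4% and 42.6%. In naive cells the order of the genotypes over these tiles was thus the opposite, with WT cells above p53-null cells. In tiles with a listed CpG it was not, with 6.54 points in naive p53-null and 6.30 points in naive WT cells. By RA-treated WT level, naive WT cells were the lower in each class under 40%, for example 1.66 against 2.15 points at 5% to 20%. They were the higher in each class above, for example 7.43 against 6.34 points at 40% to 60%. Of the tiles measured in naive cells, 30.5% were at 10 points or more and 11.0% at -10 points or less in p53-null cells, and 31.7% and 8.09% in WT cells. The level classes used next come from RA-treated WT total, which enters neither estimate. In tiles under 5% the values were 0.202 and 0.209 points, and at 5% to 20% they were 2.15 and 1.89 points. At 40% to 60% naive cells had 6.34 and RA-treated cells 3.66 points, and at 60% to 80% 7.12 and 3.54 points. In that last class total methylation was 61.6% and 62.1%, and 5hmC was 11.6% and 5.71% of it. State and any difference in oxidation between the libraries of the 2 states cannot be told apart in these columns.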

How the data were processed

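DNA from 39 libraries was cut with MspI and sequenced after bisulfite treatment, with or without prior oxidation with a kit, per the labels' protocols. The submitters' processing notes name Trim Galore, BSMAP and methylKit and the build mm9. Neither the notes nor the labels give versions, coverage filters or the way of pooling. The authors deposited the tile table as a fraction methylated per tile, with 1 column per group, here multiplied to percent. The single-CpG table holds whole percent values, as deposited by the authors. Another 4 columns of the tile table, whose headings name no tissue or sample, were not used.

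5hmC was computed as total minus 5mC and equalled the deposited 5hmC within 0.0005 points. No count, coverage or value per library was given, so the planned count models, coverage minimum, replicate block and leaving out of libraries could not be run, and no test is reported. Means count each tile once. CpGs were assigned to tiles by position. Level classes have limits of 5, 20, 40, 60 and 80%. Named windows are the 10 highest and 5 lowest of 100 kb with at least 20 tiles by their odd tiles, with even tiles giving the value, and named runs are the 5 highest that do not overlap. The members, classes and rules were chosen with earlier results of these data known. No gene was assigned and no sequence printed, since the reference tables are on GRCm38.p6. Coordinates count from 1. Class means and neighbour correlations were tested on simulated data. Python 3.11.15, numpy 2.4.6, pandas 2.3.3 and matplotlib 3.10.9 were used.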

Additional observations from a re-analysis of the deposited data

How the results depend on the processing

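No paired analysis was possible because each group of libraries comes as a single pooled value, and for the same reason no library could be left out. A value counts as unchanged within 1 SD over chromosomes, a share of tiles or an SD within 1.5 times, and the median over windows within 1 SD over windows. Of 60 recomputed values 32 were unchanged, 23 moved and 5 changed sign, and the cause was not tested except where the class column is part of the difference. Autosomes only, tiles with all 8 values, windows counting once and leaving out tiles at 0 or 100% in both columns moved none of the 5 main values. No listed CpG has a difference below 0 in any mESC group, so settings by the listing are not independent of the values recomputed. Tiles with at least 3 listed CpGs gave a mean 5hmC of 1.35 points, 4.53% of tiles at 10 points or more and 0.0177% at -10 points or less. Their genotype difference was -0.0575 points and their state difference -0.490 points. The settings in the next sentence, own 5mC as a class, and tiles within 1 kb in the band of 40% to 60% naive total were added after seeing the data. Tiles with no listed CpG gave 1.86 points, 13.2% at -10 points or less and a genotype difference of 1.49 points, and tiles of at least 20% in RA-treated WT cells gave 3.62 points and a state difference of -2.87 points. At 20 points in place of 10 the shares were 5.76% and 1.89%. Level classes from WT total gave 0.207 points under 5%, 3.30 at 20% to 40%, 3.61 at 60% to 80% and 3.97 at 80% or more. From own total they gave -0.0440, 0.874, 6.24 and 12.3 points, and from own 5mC 0.835, 7.75, -2.07 and -11.1 points. The difference between tiles with 1 and with 5 or more listed CpGs was 5.42 points. It was 3.04 points by tiles within 1 kb (none minus 5 or more), -2.01 points within 40% to 60% naive total and 0.920 points by tiles within 1 kb in that band. The SD over windows was 1.63 points at 1 Mb. The median over windows of 2.69 points, counted as unchanged by its wide SD of 2.88 points, was 1.35 points at 10 kb and 1.06 points with the median over tiles. Depth is unknown, so the error of a tile is seen only in the values below 0.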

Other observations

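At a fixed level, 5hmC of RA-treated p53-null cells was higher in tiles that had gained more methylation with RA in WT cells. The gain is RA-treated minus naive WT total methylation, and no p53-null column enters it. Within a band of RA-treated WT level a larger gain goes with a lower naive WT level, so gain and naive level cannot be told apart here. In tiles at 40% to 60% in RA-treated WT cells, p53-null 5hmC averaged 2.97 points in the 7625 tiles that fell in WT cells, 3.34 points at a gain of 0 to 10 points, 3.57 at 10 to 20, 3.83 at 20 to 30 and 4.54 points in the 8906 tiles with a gain of 30 points or more (SD over chromosomes 0.447 in the first and 0.647 in the last class). Total methylation of p53-null cells fell over these classes from 54.4% to 43.9%, so 5hmC was 5.46% of it in the first and 10.3% in the last. At 60% to 80% the means were 2.52 points in tiles that fell and 4.51 points at a gain of 30 points or more.

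Tiles with more 5hmC in naive cells had somewhat more after RA. Naive 5hmC is the mean of both genotypes. In the same band of 40% to 60%, tiles under 0 in naive cells had 3.26 points in RA-treated p53-null cells and tiles at 20 points or more had 4.56 points, with 3.31, 3.62 and 3.95 points in between. The 5628 tiles in the top class averaged 28.5 points in naive p53-null cells. At 60% to 80% the means were 3.35 points under 0, 3.01 at 0 to 5 points and 4.43 points at 20 points or more. Over single tiles r between RA-treated and naive p53-null 5hmC was 0.0452 over 214665 tiles, whose values come from the same pools of libraries throughout.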
